A study of Mus musculus with 8 samples.

Results

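The cholesterol synthesis and SREBP regulation genes were the 28 genes, of 55487 in the expression table, whose symbol was on a list of pathway names. The match used symbols only, but the list was chosen with earlier results of these data known. They comprise 19 enzymes of cholesterol synthesis, 5 genes that sense sterols or carry the transcriptional response to them, and 4 genes of sterol transport and storage. Transcripts were measured by RNA sequencing in intestinal epithelial cells (IECs), the cells that line the gut, from the colon of C57BL/6J mice. The groups were 4 wild-type (WT) libraries and 4 libraries from PIM1+/- mice, a heterozygous genotype of the gene for the serine/threonine kinase Pim1. The labels give no age, sex or treatment for either group, do not say how the allele was made, and do not say whether each library came from a separate animal, so the p-values measure only the spread between these libraries. Levels are in TPM, the share of a library's transcripts that come from a gene, adjusted for gene length so that levels of different genes can be set side by side.

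Cholesterol is built from acetyl-CoA through mevalonate, isoprenoid diphosphates, squalene and lanosterol, and the isoprenoid branch also supplies ubiquinone, dolichol and protein prenylation. When sterols in the endoplasmic reticulum are scarce, the escort protein Scap carries the membrane-bound SREBP transcription factors to the Golgi, where proteases free the part that enters the nucleus and raises transcription of the synthesis genes. When sterols are plentiful the Insig proteins hold Scap in the endoplasmic reticulum. The colon epithelium renews itself continuously and needs sterol for new membranes.

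SREBP is known to act at promoters together with the CCAAT-binding factor NF-Y, so the 250 bases before the annotated start were searched for 3 motifs on both strands. RefSeq promoters (GRCm38.p6) were matched for 24 of the 28 genes; Fdps, Fdft1, Sqle and Stard4 were not matched. CCAAT was found in 21 of these 24 promoters, against 37.5% of the 27025 genes with such a window. The sterol regulatory element TCACNCCAC was found in 1 of the 24, Hmgcs1, against 1.22% of all genes, and the E-box CACGTG in 6 of the 24, against 6.86%. No pair of these motifs shares its letters in the sequences shown. A match describes the letters only, and motif choice drew on textbook knowledge of this pathway. The promoters of Hmgcs1, Mvd and Sc5d are shown because they hold the sterol element, CCAAT boxes without it, and an E-box, and contain no annotated exon. Each is written 5′ to 3′ on the gene's strand with motif letters, on either strand, in capitals; CCAAT on the other strand reads ATTGG.
Hmgcs1: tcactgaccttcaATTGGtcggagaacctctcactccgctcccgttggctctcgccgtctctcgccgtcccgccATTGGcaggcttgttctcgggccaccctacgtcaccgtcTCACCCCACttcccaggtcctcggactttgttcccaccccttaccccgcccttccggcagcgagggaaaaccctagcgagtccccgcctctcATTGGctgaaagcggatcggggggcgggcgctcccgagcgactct
Mvd: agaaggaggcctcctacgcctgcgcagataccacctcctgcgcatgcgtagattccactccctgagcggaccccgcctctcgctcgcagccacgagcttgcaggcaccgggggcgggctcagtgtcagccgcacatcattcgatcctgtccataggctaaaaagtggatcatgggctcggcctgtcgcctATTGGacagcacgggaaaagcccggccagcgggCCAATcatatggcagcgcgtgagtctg
Sc5d: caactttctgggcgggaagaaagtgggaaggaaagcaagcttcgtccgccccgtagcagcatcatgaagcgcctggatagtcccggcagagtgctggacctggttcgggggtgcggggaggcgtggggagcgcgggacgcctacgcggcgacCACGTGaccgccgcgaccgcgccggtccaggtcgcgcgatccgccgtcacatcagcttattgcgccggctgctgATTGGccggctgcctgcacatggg
The windows lie at chr13:119690101-119690350 (plus strand), chr8:122443423-122443672 (minus strand) and chr9:42264301-42264550 (minus strand). In Hmgcs1 the sterol element begins 137 bases before the start and the CCAAT boxes begin 237, 176 and 45 bases before it. In Mvd the CCAAT boxes begin 60 and 27 bases before the start. Sc5d has 1 CCAAT box 24 bases and 1 E-box 98 bases before its start. None of the 3 genes passed the genotype test described next.

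Between PIM1+/- and WT colon IECs, Fdps was the only 1 of 26 tested genes of the set that passed the genotype test: it was 1.34-fold higher in PIM1+/-. Of the synthesis enzymes, 16 of 19 had a positive difference and 3 a negative one, but the differences were small. Over all 12760 genes tested, 6130 had a positive difference and 6630 a negative one. In a rescaling described below, Hmgcs1, Mvk, Ggps1, Lss and Msmo1 turned negative, while the median of all genes also fell. The median log2 difference was 0.19 for the 19 enzymes and 0.10 for all 26 tested genes, beside -0.01 over all 12760 genes tested. Dhcr7, the enzyme of a last step, lay on the other side, with a log2 difference of -0.34 that did not pass. The sterol sensors and SREBP genes had differences between -0.09 and 0.22, and none passed.

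The test was limma on log2(TPM + 1) with p-values adjusted by the Benjamini-Hochberg method over all 12760 genes that reached 1 TPM in 4 or more of the 8 libraries, called at an adjusted p of at most 0.05. Each difference is PIM1+/- minus WT on that log2 scale, which understates the change of low genes. At this threshold 17.5% of all tested genes were called, 8.93% higher and 8.54% lower, against 1 higher and 0 lower of the 26. Without adjustment, 10 of the 26 had p under 0.05, 9 higher and 1 lower, as did 32.4% of all tested genes, 16.3% higher and 16.1% lower. The libraries of the 2 genotypes did not overlap for 5 of the 26, namely Pmvk, Fdps, Cyp51 and Sc5d (all PIM1+/- libraries higher) and Dhcr7 (all lower). Over all tested genes the libraries did not overlap for 23.5%, 11.9% higher and 11.6% lower. In both directions together, the count for the set, as that for calls, is no higher than the background. By direction, on counts of only 4 and 1, the set lay slightly above the share for higher and below that for lower. The members Npc1l1 and Abca1 fell below the filter. The plots of levels and of differences show the 28 and the 26 genes by step.

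**Figure D1:**
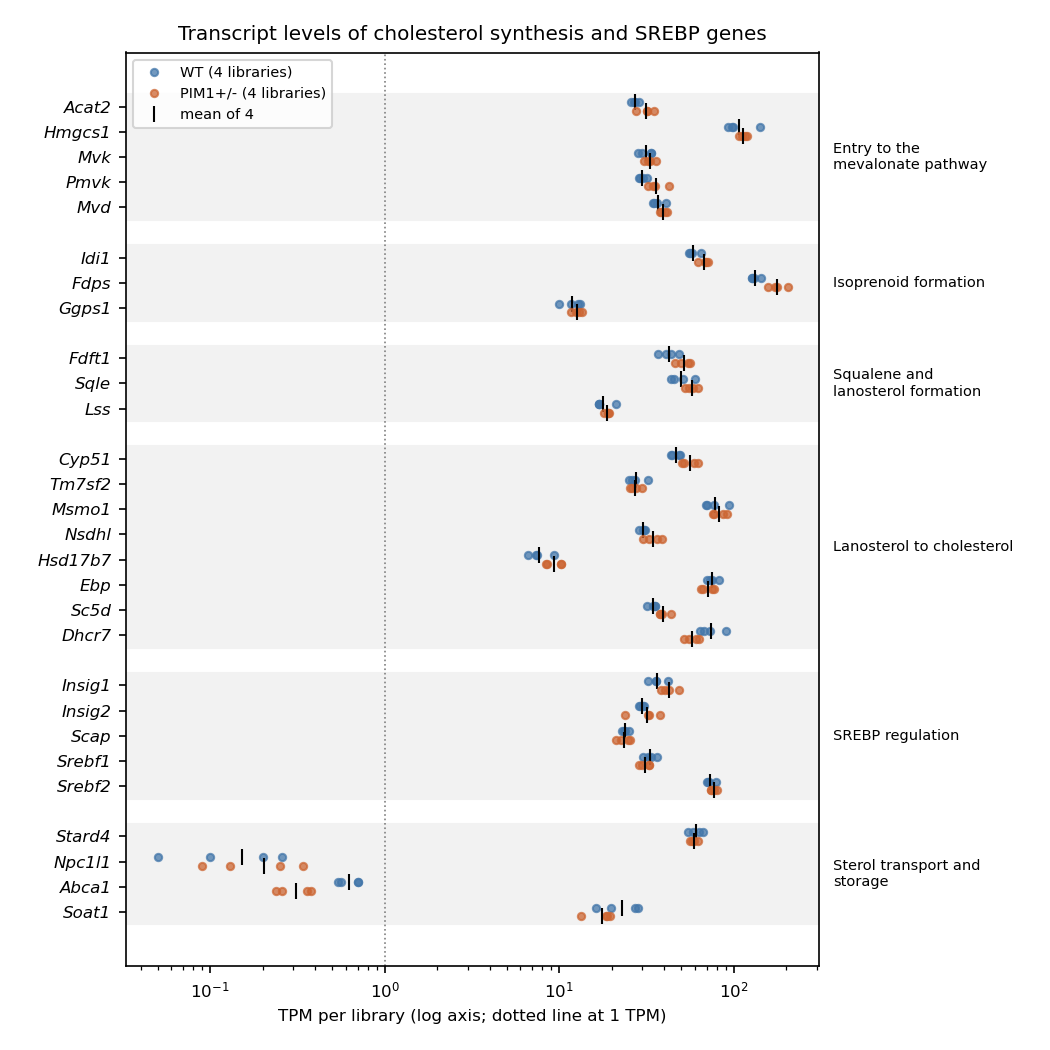
TPM (log axis) of the 28 genes, grouped by pathway step. Each point is 1 library (blue WT, orange PIM1+/-, 4 each) and each black tick the mean of 4; most genes lie between 7 and 200 TPM, while Npc1l1 and Abca1 lie below 1 TPM, the dotted line.

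**Figure D2:**
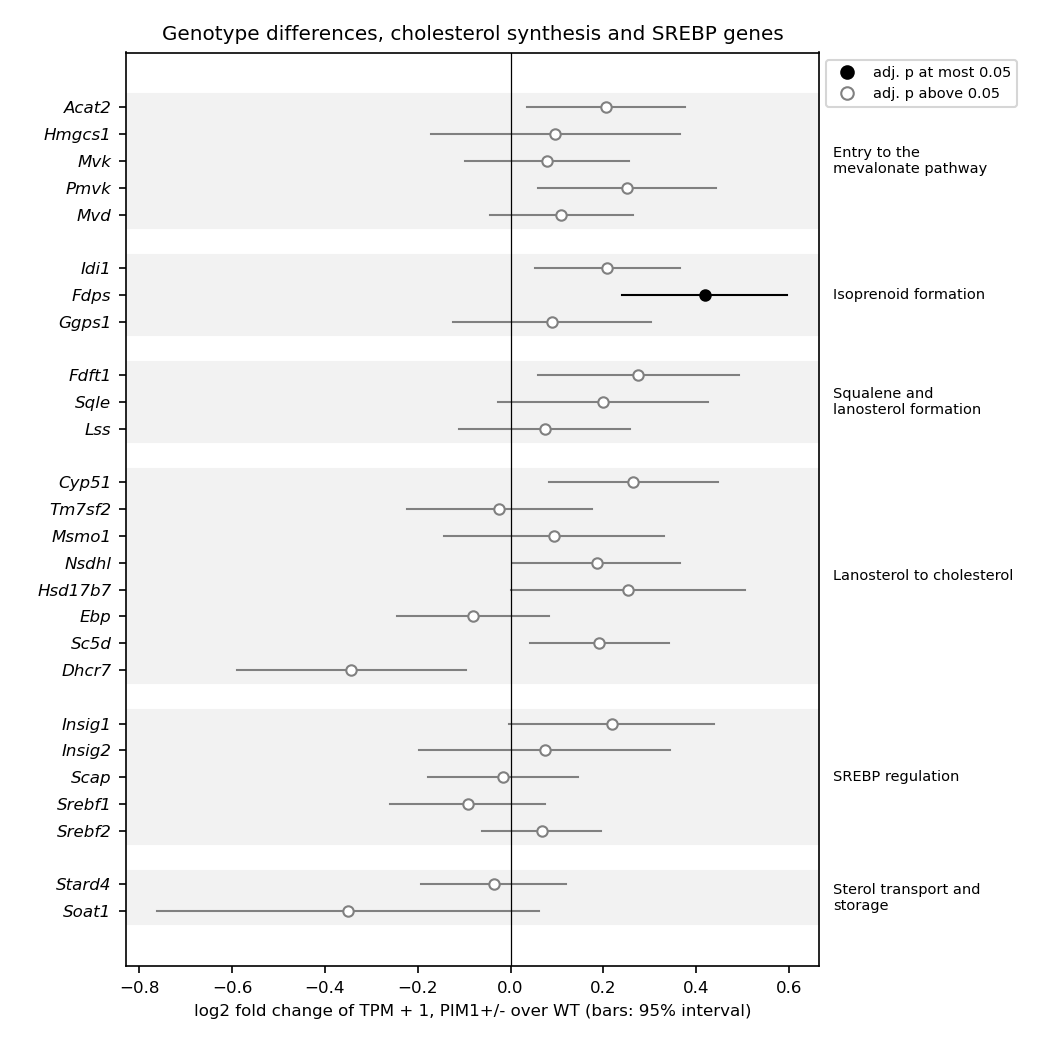
Log2 difference of TPM + 1, PIM1+/- over WT, for the 26 tested genes, with 95% intervals from limma. The filled point, Fdps, is the only gene with an adjusted p of at most 0.05, and Dhcr7 and Soat1 lie farthest on the negative side.

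Several facts about the libraries stand beside these values. Pim1 itself measured 5.72 to 8.83 TPM in WT and 5.64 to 7.97 TPM in PIM1+/- libraries, a log2 difference of -0.19 ± 0.15 (SE; limma adjusted p = 0.411, n = 4 and 4), and the ranges overlapped. Epcam, a defining epithelial marker, measured 1177 to 1402 TPM over the 8 libraries, and Lum, a fibroblast gene, was listed at 0 in all 8. The 12 epithelial markers summed to 19390 to 24743 TPM in WT and 27775 to 33822 TPM in PIM1+/- libraries, and 6 of the 12 rose and 1 fell. Car1 made most of the gain, with means of 7135 of 23172 TPM in WT and 12859 of 30763 TPM in PIM1+/-. Cdx1 was the marker that fell, and Epcam, Cdh1, Slc26a3, Lgals4 and Muc2 were not called. The 10 T and NK cell markers summed to 9.47 to 22.1 TPM in WT and 39.3 to 98.2 TPM in PIM1+/-, with 7 of 9 tested higher. The 10 macrophage and dendritic cell markers summed to 25.9 to 32.3 TPM in WT and 43.1 to 53.6 TPM in PIM1+/- libraries. Cd14 alone made most of this sum, with means of 26.1 of 29.5 TPM in WT and 37.9 of 47.5 TPM in PIM1+/-. Of these 10 markers, 2 of 3 tested were higher and 7 lay below a mean of 1 TPM. The macrophage gene Adgre1 was listed at 0 in 4 libraries. Of B and plasma cell and endothelial markers 0 of 2 tested passed in each list, and no fibroblast or smooth muscle marker reached the filter. Mitochondrially encoded transcripts and their 16 nuclear copies took 27.1 to 30.4% of all TPM in WT and 20.9 to 23.5% in PIM1+/- libraries. The part of these shifts in the differences reported here was not tested, except for the mitochondrial share, whose removal is given below. In bulk RNA, fewer cells of a type and less RNA per cell cannot be told apart.

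The 5 enzymes at the entry to the pathway had log2 differences of 0.08 to 0.25 (median 0.11), and none passed the test (2 had unadjusted p under 0.05). Hmgcs1, which condenses acetyl-CoA with acetoacetyl-CoA, was the most abundant of them and measured 97.3, 99.2, 141 and 93.2 TPM in WT (here and below in the order of replicates 1 to 4) and 119.7, 116, 107 and 112 TPM in PIM1+/-. WT replicate 3 lay above all PIM1+/- libraries and the other WT libraries lay below all of them. The log2 difference was 0.10 ± 0.12 (SE; limma adjusted p = 0.62). Without WT replicate 3 it was 0.23 ± 0.06 with a limma adjusted p of 0.0353, so that this single library decided the call. Acat2, the thiolase that makes acetoacetyl-CoA, measured 28.5, 26.8, 27.1 and 25.8 TPM in WT and 31.7, 27.5, 31.7 and 34.7 TPM in PIM1+/-. Only PIM1+/- replicate 2 fell within the WT range, and the log2 difference was 0.21 ± 0.08 (limma adjusted p = 0.0941, or 0.037 without that library).

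Pmvk, the second of the kinases that phosphorylate mevalonate, measured 28.9, 28.7, 32.0 and 30.4 TPM in WT and 42.3, 34.2, 35.3 and 32.4 TPM in PIM1+/-. All PIM1+/- libraries were above all WT libraries, the nearest by less than 1 TPM. Its log2 difference was 0.25 ± 0.09 (SE) with a limma adjusted p of 0.0716. Mvk, the first of these kinases, had means of 31.3 ± 2.83 and 33.0 ± 2.17 TPM (SD, n = 4 each; limma adjusted p = 0.526). Mvd, the decarboxylase that yields isopentenyl diphosphate, had means of 36.7 ± 3.06 and 39.6 ± 1.61 TPM (limma adjusted p = 0.301), and the genotypes overlapped for both.

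Fdps stood out within the isoprenoid step. Its product, farnesyl diphosphate synthase, makes the common precursor of sterols, ubiquinone and farnesyl groups, and its transcript had the highest mean level of the 28 in both genotypes. The gene (ENSMUSG00000059743) lies on the minus strand of chromosome 3 from 89093588 to 89101959 (GRCm38). Fdps measured 127, 144, 131 and 127 TPM in WT and 203, 172, 158 and 177 TPM in PIM1+/- libraries. The lowest PIM1+/- library, replicate 3, lay above the highest WT library, replicate 2. The means were 132 ± 8.14 and 177 ± 19 TPM (SD, n = 4 each), a log2 difference of 0.42 ± 0.08 (SE; 95% interval 0.24 to 0.60; limma adjusted p = 0.00814). Fdps stayed called in all 16 alternative settings, with values of 0.31 to 0.47. Gm43738, a gene model on the same strand with a mean of 4.08 TPM, shares 1124 exonic bases with Fdps, and no source used here says how reads there were divided.

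Idi1, the isomerase just before Fdps, measured 56.1, 55.7, 65.3 and 57.5 TPM in WT and 68.4, 62.1, 69.8 and 71.5 TPM in PIM1+/-. WT replicate 3 exceeded PIM1+/- replicate 2, and the other WT libraries were below all PIM1+/- libraries. The log2 difference of 0.21 ± 0.07 (SE) had a limma adjusted p of 0.0666, which became 0.0324 without WT replicate 3 and 0.0495 without PIM1+/- replicate 2. Ggps1, which extends farnesyl to geranylgeranyl diphosphate, was lower in level at 11.9 ± 1.43 and 12.6 ± 0.780 TPM (SD; log2 difference 0.09 ± 0.10, limma adjusted p = 0.56). It shares 257 exonic bases with Arid4b on the other strand (mean 13.8 TPM). Summed over the 3 genes, the isoprenoid step held 195 to 213 TPM in WT and 240.3 to 285 TPM in PIM1+/- libraries, a ratio of means of 1.27, and Fdps held most of that level.

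None of the 3 enzymes that form squalene and lanosterol passed the test, with differences of 0.07 to 0.28. Fdft1, squalene synthase, which draws farnesyl diphosphate into sterols, measured 36.7, 43.9, 48.8 and 40.8 TPM in WT and 49.5, 54.6, 46.0 and 56.2 TPM in PIM1+/-. The ranges overlapped because WT replicate 3 was above PIM1+/- replicate 3. The log2 difference was 0.28 ± 0.10 (SE; limma adjusted p = 0.0797), and 0.34 ± 0.09 without WT replicate 3 (limma adjusted p = 0.0449). Fdft1 shares 774 exonic bases with Ctsb on the other strand, a gene at a mean of 167 TPM, and reads of the pair cannot be told apart unless strand was used in counting, which no source used here states.

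Sqle, squalene epoxidase and a known control point of the pathway, had means of 50.0 ± 7.34 and 57.3 ± 4.13 TPM (SD; log2 difference 0.20 ± 0.10, limma adjusted p = 0.206). Lss, which folds the epoxide into lanosterol, measured 16.8, 16.8, 21.1 and 17 TPM in WT and 19.1, 19.2, 18.1 and 18.9 TPM in PIM1+/-. Again WT replicate 3 was above all PIM1+/- libraries and the other WT libraries were below all of them. The log2 difference of Lss was 0.07 ± 0.08 (limma adjusted p = 0.578).

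The 8 enzymes from lanosterol to cholesterol did not move one way: 5 had positive and 3 negative differences, from -0.34 to 0.26, and their summed level had a ratio of means of 1.01. None passed the test, while 4 had an unadjusted p under 0.05 on the higher side and 1 on the lower. Cyp51, the demethylase that opens this stretch, measured 43.9, 44.1, 49.3 and 48.3 TPM in WT and 59.5, 51.7, 50.7 and 62.6 TPM in PIM1+/-. All PIM1+/- libraries were above all WT libraries, with replicates 2 and 3 close to the WT maximum. Its log2 difference was 0.26 ± 0.08 (SE; 95% interval 0.08 to 0.45; limma adjusted p = 0.052). It passed without PIM1+/- replicate 3 (0.31, limma adjusted p = 0.0438). Cyp51 shares 166 exonic bases with Akap9 on the other strand (mean 32.9 TPM), and whether strand was used in counting is not stated.

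Sc5d, the desaturase that makes 7-dehydrocholesterol, is the other enzyme of this stretch that was higher in every PIM1+/- library. It measured 31.9, 35.1, 35.6 and 34.6 TPM in WT and 38.5, 37.6, 37.7 and 43.7 TPM in PIM1+/-, with replicate 4 well above the others. The log2 difference was 0.19 ± 0.07 (SE; 95% interval 0.04 to 0.34; limma adjusted p = 0.0794). Dhcr7, the reductase that acts on the product of Sc5d to give cholesterol, was the opposite case. The gene (ENSMUSG00000058454) lies on chromosome 7 from 143823145 to 143848410 (GRCm38). Dhcr7 measured 72.8, 63.9, 90.7 and 67.8 TPM in WT and 51.6, 55.3, 60.4 and 63.2 TPM in PIM1+/-. All PIM1+/- libraries were below all WT libraries, the closest pair being PIM1+/- replicate 4 and WT replicate 2.

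The means of Dhcr7 were 73.8 ± 11.8 and 57.6 ± 5.17 TPM (SD, n = 4 each), a ratio of 0.781 and a log2 difference of -0.34 ± 0.11 (SE; 95% interval -0.59 to -0.10; limma adjusted p = 0.0601). This call depended on the scaling: Dhcr7 passed as lower after upper-quartile scaling (-0.39, limma adjusted p = 0.0286), after rescaling without mitochondrial transcripts (-0.40, limma adjusted p = 0.0347) and without WT replicate 2 (-0.41, limma adjusted p = 0.042). It did not pass with any other library left out, where the difference was as small as -0.24 (without WT replicate 3) and the limma adjusted p as high as 0.137 (without PIM1+/- replicate 1), nor in the fit without the filter. Per library, the level of Dhcr7 was 1.82 to 2.55 times that of Sc5d in WT and 1.34 to 1.6 times in PIM1+/-. This ratio is the same under any scaling of a library, and it was chosen after the values were seen, so it is given without a test.

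Of the other enzymes of this stretch, Hsd17b7, Nsdhl and Msmo1, which remove or process the methyl groups at carbon 4, had positive differences. Hsd17b7 had means of 7.71 ± 1.13 and 9.36 ± 0.995 TPM (SD; log2 difference 0.25 ± 0.11, limma adjusted p = 0.154), Nsdhl 30.1 ± 1.08 and 34.5 ± 3.71 TPM (0.19 ± 0.08, adjusted p = 0.141), and Msmo1 77.8 ± 11.6 and 82.7 ± 7.81 TPM (0.09 ± 0.11, adjusted p = 0.586). Tm7sf2, a sterol reductase, had means of 27.7 ± 3.17 and 27.2 ± 2.04 TPM (-0.02 ± 0.09, limma adjusted p = 0.884), and shares 532 exonic bases on the same strand with Vps51 (mean 40.2 TPM). Ebp, the sterol isomerase, had means of 75.1 ± 4.98 and 71.1 ± 5.84 TPM (-0.08 ± 0.07, limma adjusted p = 0.485). The libraries of the genotypes overlapped for all 5.

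Across the 19 enzymes, WT replicate 3 stood above the other WT libraries. It was the highest WT library for 16 of 19 enzymes (84.2%), including all 8 from lanosterol to cholesterol, and for 20 of the 26 tested genes, whereas it was the highest for 39.4% of all tested genes. After upper-quartile scaling it was the highest for 11 of 19 (57.9%), against 28.6% of all tested genes. Summed TPM of the 19 enzymes were 872, 899, 1035 and 868 in WT and 1061, 992, 957 and 1059 in PIM1+/- libraries. WT replicate 3 thus lay among the PIM1+/- libraries and the other WT libraries below all of them, and the ratio of means was 1.11. Among PIM1+/- libraries, replicate 3 was the lowest for 11 of 19 enzymes (57.9%, against 19% of all tested genes), while replicate 1 was the highest for 8 and replicate 4 for 9.

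**Figure D3:**
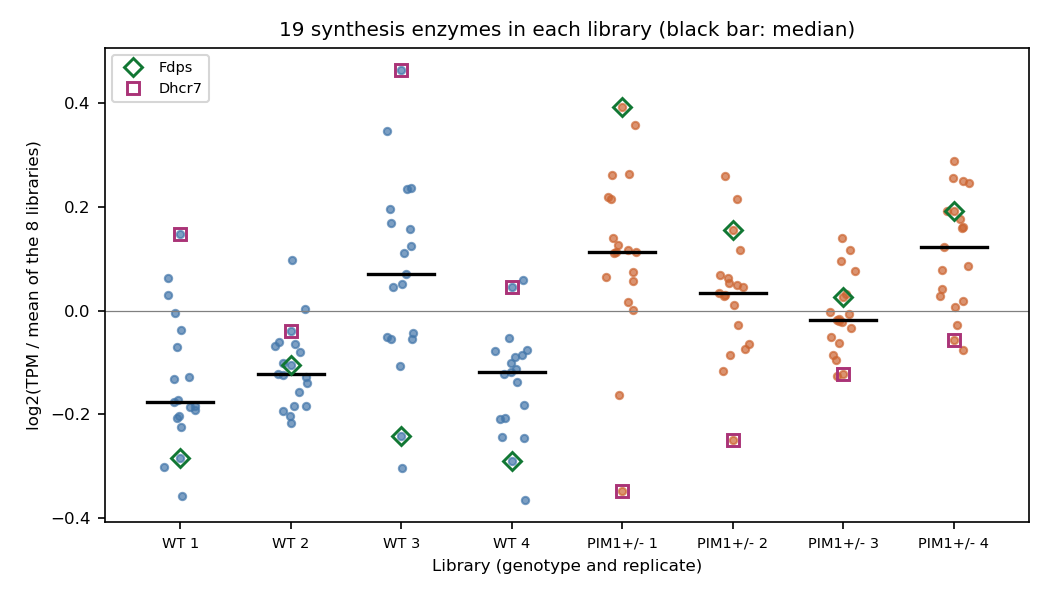
Each of the 19 synthesis enzymes in each library, as log2 of its TPM over its mean in the 8 libraries; black bars are medians over the enzymes. The median of WT replicate 3 lies among those of the PIM1+/- libraries, while Fdps (diamonds) is higher and Dhcr7 (squares) lower in all 4 PIM1+/- libraries than in any WT library.

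Without WT replicate 3, the comparison gave 4 higher genes and 0 lower among the 26: Fdps, Hmgcs1, Idi1 and Fdft1. The background was then 6.87% of tested genes higher, and the median difference was 0.18 for the 26, beside 0.007 over all genes tested. Without PIM1+/- replicate 2 the higher genes were Fdps, Acat2 and Idi1, where 7.18% of all tested genes were higher. Without PIM1+/- replicate 3 they were Fdps and Cyp51, against 6.79%. The genes called beside Fdps thus changed with the library left out.

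The intervals show what size of change these 8 libraries could have missed. For 23 of the 25 tested genes that were not called, the 95% interval of the difference lay within 1.5-fold in either direction. Dhcr7 and Soat1 were the exceptions, both toward lower values. The widest interval on the higher side among the 25 reached 0.51, for Hsd17b7.

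The 5 genes of sterol sensing had no call and no unadjusted p under 0.05 in limma (median difference 0.07). Srebf2, the SREBP gene with most weight in cholesterol synthesis, had means of 73.2 ± 4.29 and 76.7 ± 2.95 TPM (SD; log2 difference 0.07 ± 0.06, limma adjusted p = 0.455). Srebf1, which acts more on fatty acid synthesis, had 33.1 ± 2.61 and 31.0 ± 2.0 TPM (-0.09 ± 0.07, limma adjusted p = 0.425). Scap, the escort protein, had 23.8 ± 0.871 and 23.6 ± 1.97 TPM (-0.02 ± 0.07, limma adjusted p = 0.903). These are transcript levels and do not measure how much SREBP was processed.

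Of the genes for the retention proteins, Insig1, itself a known SREBP target, measured 35.7, 32.2, 42.3 and 35.8 TPM in WT and 40.5, 48.8, 42.8 and 38.2 TPM in PIM1+/-. WT replicate 3 again lay inside the PIM1+/- range, and the other WT libraries lay below it. The log2 difference was 0.22 ± 0.10 (SE; limma adjusted p = 0.16). Insig2 had means of 29.6 ± 0.994 and 31.6 ± 5.78 TPM (SD; 0.07 ± 0.12, limma adjusted p = 0.716), and the PIM1+/- libraries spread from 23.8 to 37.8 TPM around a narrow WT range. Srebf1 shares 109 exonic bases with Rai1 on the other strand (mean 11 TPM), a small part of its length.

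The transport and storage genes spanned the widest range of levels, and neither of the 2 tested passed. Stard4, a cytosolic sterol carrier and SREBP target, had means of 60.6 ± 5.28 and 58.9 ± 2.55 TPM (SD; log2 difference -0.04 ± 0.07, limma adjusted p = 0.759). Soat1, which esterifies cholesterol for storage, measured 19.8, 27.2, 28.4 and 16.3 TPM in WT and 19.4, 13.4, 18.5 and 18.7 TPM in PIM1+/-. WT replicates 2 and 3 were well above all PIM1+/- libraries, WT replicate 1 was just above them and WT replicate 4 lay within their range. The log2 difference of -0.35 ± 0.18 (95% interval -0.76 to 0.06; limma adjusted p = 0.22) was the least precise of the set.

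Npc1l1, the sterol uptake protein of the small intestine, was near the detection limit at 0.05 to 0.26 TPM in WT and 0.09 to 0.34 TPM in PIM1+/- libraries, and was not tested under the filter. Abca1, which exports cholesterol to apolipoprotein and is a known target of the sterol-sensing LXR receptors, measured 0.56, 0.54, 0.70 and 0.70 TPM in WT and 0.24, 0.26, 0.38 and 0.36 TPM in PIM1+/-. All PIM1+/- libraries were below all WT libraries, with means of 0.625 ± 0.0870 and 0.310 ± 0.0702 TPM (SD, n = 4 each), a ratio of 0.496. Fitted without the filter, Abca1 was called lower (log2 difference -0.31 ± 0.07, SE; limma adjusted p = 0.0385), as were 2.49% of the 26705 genes in that fit. The level is below 1 TPM, and the read depth behind it is not known. Macrophages also express Abca1. Of their 10 markers, Cd14 and C1qa passed as higher, Cd68 was tested and did not pass, and 7 were below a mean of 1 TPM. Their part in the Abca1 values was not tested.

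Genes next to the pathway were taken from 5 lists of 55 genes in all. Over all tested genes, 8.93% were called higher and 8.54% lower, and 32.4% had a limma unadjusted p under 0.05. Among genes of SREBP processing and of degradation at the endoplasmic reticulum, 1 of 9 rose and 0 fell (median -0.01; 4 had unadjusted p under 0.05). That gene was Vcp, the ATPase that extracts proteins from the membrane, with 135 ± 4.46 and 159 ± 12.8 TPM (SD; log2 difference 0.23 ± 0.06, limma adjusted p = 0.0326). Vcp lost the call in 6 of 8 fits with a library left out and in 5 of 8 other settings, among them the replicate block (limma adjusted p = 0.0639) and the rescaling without mitochondrial transcripts (0.17, limma adjusted p = 0.066). With their nuclear copies also removed its difference was 0.12 (limma adjusted p = 0.121). Mbtps1, the protease that makes the first cut in SREBP, had a difference of -0.18 (limma adjusted p = 0.09), and Mbtps2, the protease of the second cut, 0.24 (limma adjusted p = 0.141). Erlin1, which acts in sterol-regulated degradation, had -0.20 (limma adjusted p = 0.102). The count for this list turned with the scaling. After rescaling without mitochondrial transcripts 0 were higher and 2 lower, Mbtps1 (limma adjusted p = 0.0352) and Erlin1 (0.0421). Over all 12760 genes tested, calls likewise moved from 1139 higher and 1090 lower to 853 and 1562. After upper-quartile scaling Mbtps1 was lower (limma adjusted p = 0.0401), where all genes gave 926 higher and 1520 lower.

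Of the fatty acid and NADPH genes that SREBP also controls, 2 of 14 rose and 5 fell (median -0.05). Over all tested genes 8.93% were called higher and 8.54% lower. Among the 19 cholesterol enzymes 1 rose and 0 fell, and the difference between the lists was not tested. Acly, which makes cytosolic acetyl-CoA and so feeds both pathways, fell from 166 ± 18.7 to 109.8 ± 16.0 TPM (SD; log2 difference -0.60 ± 0.11, limma adjusted p = 0.00769). Acss2, which makes acetyl-CoA from acetate, fell from 75.5 to 55.6 TPM (-0.44, limma adjusted p = 0.0311). Both genes supply the first substrate of the pathway, and among the 19 synthesis enzymes none was called lower.

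Fads1 and Fads2, the desaturases of polyunsaturated fatty acids, moved in opposite directions. Fads1 rose from 3.91 ± 0.681 to 9.14 ± 2.10 TPM (SD; log2 difference 1.04 ± 0.16, limma adjusted p = 0.00294) and Fads2 fell from 136 ± 9.61 to 93.6 ± 9.49 TPM (-0.53 ± 0.08, limma adjusted p = 0.00313). Gpam, which starts glycerolipid synthesis, fell from 9.39 ± 0.936 to 5.72 ± 0.557 TPM (-0.63 ± 0.10, limma adjusted p = 0.00354). Scd2, a stearoyl-CoA desaturase, fell (-0.33, limma adjusted p = 0.0443), and Me1, an NADPH-making malic enzyme, rose from 6.95 to 15.6 TPM (1.0, limma adjusted p = 0.0279), where PIM1+/- replicate 1 held 26.6 TPM and the others 11.4 to 13. Fasn, Scd1 and Acaca, at differences of 0.07, -0.03 and -0.08, were not called. Left-out libraries ended the calls of Acss2 (5 of 8 fits), Scd2 (7 of 8, and with the replicate block, limma adjusted p = 0.0576) and Me1 (3 of 8), and none of these 3 passed without the filter. Acss2, Scd2, Me1, Fasn, Scd1 and Acaca were named after their values were seen.

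Of the efflux and LXR genes, 0 of 9 tested rose and 1 fell, against 8.93% and 8.54% of all tested genes. The median of this list was -0.09, and 4 had a limma unadjusted p under 0.05, against 32.4% of all tested genes. Abcg5, part of the sterol exporter of the apical membrane, measured 3.16, 3.29, 3.06 and 2.50 TPM in WT and 0.73, 0.92, 0.78 and 0.93 TPM in PIM1+/-. The ranges lay far apart, and the log2 difference was -1.12 ± 0.12 (SE; limma adjusted p = 0.000408). Its partner Abcg8 was below the filter, with means of 1.12 and 0.455 TPM, and Abcg1, another exporter, went the other way with 0.338 and 0.887 TPM. In the fit without the filter Abcg8 was lower (-0.54, limma adjusted p = 0.0387) and Abcg1 did not pass (0.48, limma adjusted p = 0.0588). Abcg8 and Abcg1 were named after their values were seen. Nr1h3, the LXR-alpha gene, had a difference of -0.38 (limma adjusted p = 0.0679), Mylip, an LXR target, -0.47 (0.0921), and Rxra, the partner receptor, 0.24 (0.0713). Nr1h3 passed as lower after upper-quartile scaling (limma adjusted p = 0.0484), after rescaling without mitochondrial transcripts (0.043) and without PIM1+/- replicate 3 (0.0216). In the first and second of these settings, lower calls over all 12760 genes tested were 1520 and 1562, against 1090 as reported. Rxra passed as higher without PIM1+/- replicate 4 (limma adjusted p = 0.0375). The median of the list was 0.04 without WT replicate 4.

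Among genes of sterol movement inside the cell, 2 of 11 rose and 0 fell (median -0.05), against 8.93% and 8.54% of all tested genes. Stard5, a sterol carrier of the same protein family as Stard4, rose from 39.6 ± 2.03 to 61.4 ± 8.49 TPM (SD; log2 difference 0.61 ± 0.10, limma adjusted p = 0.00432). Tmem97, a known SREBP target, rose from 53.9 ± 4.99 to 71.2 ± 9.0 TPM (0.39 ± 0.10, limma adjusted p = 0.0269), but not with a replicate block (0.0511), without the filter (0.0689) or in 5 of 8 fits with a library left out. Osbpl2 and Scarb1 had differences of -0.24 and -0.27 (limma adjusted p = 0.13 and 0.125). Both passed as lower after rescaling without mitochondrial transcripts and their nuclear copies (limma adjusted p = 0.0397 and 0.0371). This setting was chosen after seeing the data, and in it 2232 of all 12760 genes tested were lower, against 1090 as reported.

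Of the genes that use the products of Fdps and Ggps1, 1 of 10 rose and 1 fell (median -0.01). The shares of all tested genes were 8.93% higher and 8.54% lower. Nus1, a subunit of the dolichol-making prenyltransferase, rose from 33.1 ± 2.35 to 40.7 ± 4.07 TPM (SD; log2 difference 0.29 ± 0.08, limma adjusted p = 0.0396). Coq2, the prenyltransferase of ubiquinone synthesis, fell from 45.1 ± 4.02 to 37.9 ± 1.09 TPM (-0.24 ± 0.07, limma adjusted p = 0.0435). Neither passed with a replicate block (limma adjusted p = 0.0832 and 0.0966) or in the fits without the trend or without the filter, and a left-out library ended the call in 6 and 7 of 8 fits. Pdss2 had a difference of 0.24 (limma adjusted p = 0.108) and Fnta, the shared subunit of the farnesyl and geranylgeranyl transferases, -0.18 (0.11). After upper-quartile scaling and after rescaling without mitochondrial transcripts, 0 of the 10 were higher and 2 lower. Nus1 no longer passed (limma adjusted p = 0.0684 and 0.0695) and Fnta passed as lower (0.0403 and 0.0419). Calls over all 12760 genes tested were then 926 higher and 1520 lower in the first setting. In the second they were 853 higher and 1562 lower.

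**Figure D4:**
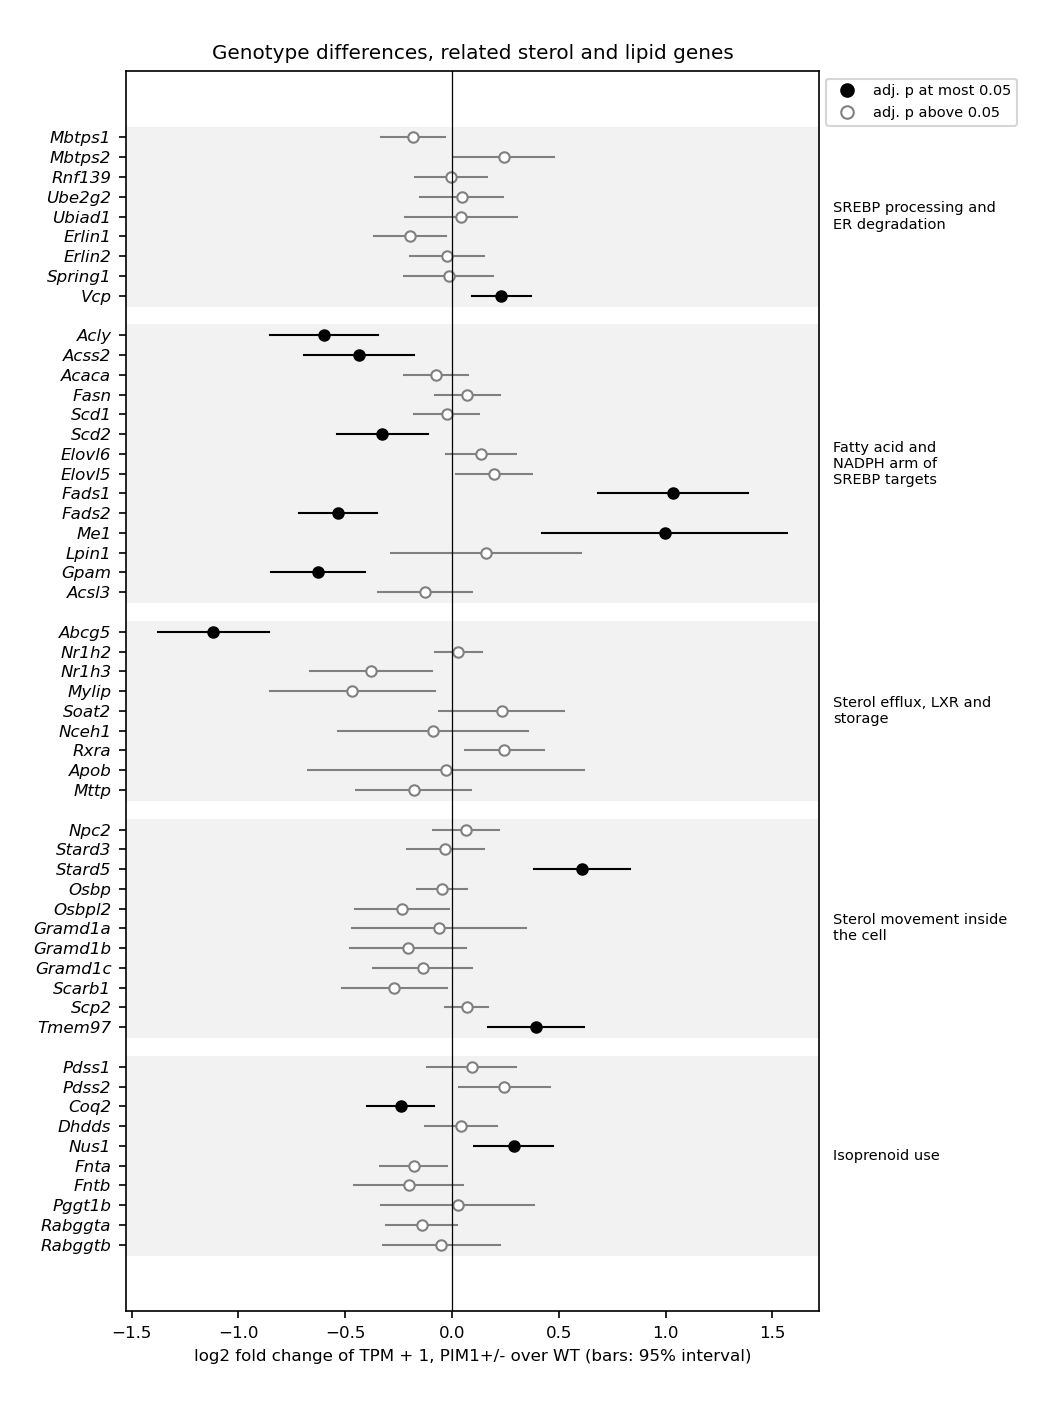
Log2 difference of TPM + 1, PIM1+/- over WT, with 95% intervals from limma, for the tested genes of the 5 related lists. Filled points have an adjusted p of at most 0.05; Fads1 and Me1 lie near 1.0 on the positive side and Abcg5 at -1.12, farther out than any cholesterol synthesis enzyme.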

How the data were processed

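TRIzol-extracted total RNA was sequenced on an Illumina NovaSeq, per the labels' protocols and the design text. The authors deposited gene-level TPM from RSEM, as the design text states. The submitters' processing notes name HISAT2, StringTie, RSEM and edgeR and the build GRCm38.p6, without versions. No source used here gives the annotation, strand setting, filters or read depth, so no counting interval could be computed. The 8 libraries sum to 990958 to 992187 TPM, and 0 value columns were left out.

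Log2(TPM + 1) was fitted on genotype with limma 3.58.1 in R 4.3.3 (mean-variance trend, 12760 genes, Benjamini-Hochberg adjustment), on 4 libraries each, after checking the fit on simulated data. Alternatives were the fit without the trend, a pseudocount of 0.1, 2 rescalings, dropping the filter, requiring a mean of 5 TPM or more, a replicate block and leaving out each library. Another rescaling, without mitochondrial transcripts and their nuclear copies (BLAST+ 2.17.0, at least 90% identity over 80% of the length), was chosen after seeing the data. The 28 genes and the lists were chosen with earlier results of these data known. In the related lists, the text names the 4 genes with the smallest p of each, beside any others it says were chosen later. Coordinates are GENCODE M21, with all 28 genes matched. 1 related gene, Spring1, was matched through a RefSeq synonym. Some genes of the pathway and of the related lists are not reported here and were left out of the list counts.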

Additional observations from a re-analysis of the deposited data

Results flagged for a closer look

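In 9 of 102 groups of 4 libraries (4 of 56 for the members), the highest or lowest library lay apart from the other 3 by Dixon's criterion, which chance meets in about 1 of 20 groups. For members, Hmgcs1 was 140.67 TPM in WT replicate 3, with the next library at 99.17, and Lss was 21.06 TPM in the same library, with the next at 16.99. Sc5d was 43.68 TPM in PIM1+/- replicate 4, with the next at 38.55, and Soat1 was low at 13.37 TPM in PIM1+/- replicate 2, with the next at 18.54. Of related genes, Scd2 was 340.08 TPM in WT replicate 3 (next 276.89), Me1 26.58 TPM in PIM1+/- replicate 1 (next 13.01) and Mylip 10.6 TPM in WT replicate 4 (next 9.07). Rxra was low at 21.26 TPM in WT replicate 3 (next 24.4) and Stard5 at 48.69 TPM in PIM1+/- replicate 4 (next 64.83).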

How the results depend on the processing

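Fdps was called higher in all 16 alternatives. The count of lower members was 1 after upper-quartile scaling, after either mitochondrial rescaling (Dhcr7 each time) and without a filter (Abca1). Of the 12760 genes tested, 1520 were lower after upper-quartile scaling and 1562 after rescaling without mitochondrial transcripts, against 1090 as reported. With the nuclear copies also removed, 2232 were lower. The share of 1 in 26 members is smaller than each of these. The count of higher members was 2 with a mean of at least 5 TPM (Fdps and Cyp51, the latter at a limma adjusted p of 0.0491). In that fit 1021 of all 9587 genes tested were higher. With a library left out, 1 to 4 members were higher and 0 to 1 lower, and the members' median ranged from 0.0853 to 0.177. Rescaling without mitochondrial transcripts and their nuclear copies moved the median of all genes from -0.01 to -0.11 and that of the members to -0.0111. It also moved the share of all calls that were higher from 51.1% to 24.6%, whereas upper-quartile scaling gave 37.9% and rescaling without mitochondrial transcripts alone 35.3%. Without the transcripts and the copies, Hmgcs1 (-0.0109), Mvk (-0.0261), Ggps1 (-0.0114), Lss (-0.0298), Msmo1 (-0.0144), Insig2 (-0.0323) and Srebf2 (-0.0408) turned negative, and relative to the all-gene shift all 7 stayed above. With a library left out, the sign varied for Insig2 (-0.0153 to 0.199), Scap (-0.0552 to 0.0305), Stard4 (-0.0868 to 0.0086) and Tm7sf2 (-0.0702 to 0.049). The cause of these changes was not tested. Same-numbered libraries correlated at -0.136 to 0.032, so the numbers were not treated as pairs; with a replicate block 1 member was higher and 0 lower (median 0.0951; Fdps adjusted p = 0.03 in limma), no member's call changed, and calls over all genes went from 1139 higher and 1090 lower to 760 and 689. Without a filter 773 and 666 of 26705 genes were called.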
